A study of Mus musculus with 12 samples.

Results

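The comparison described here set 2 miRNA arrays of ATF4 knockout fibroblasts after 24 h of tunicamycin against 2 arrays of the same cells after 12 h, 4 of the 12 arrays of the series. The arrays were chosen by genotype, drug and time as the labels give them, without use of any signal. They were paired by replicate number, because the tunicamycin arrays of replicate 1 were scanned on 1 day and those of replicate 2 on another. Of 611 mouse miRNAs on the array, 120 were bright enough to be tested and 491 were not. The cells were mouse embryonic fibroblasts (MEFs) of C57BL/6 background, labelled ATF4KO, and the drug was given at 2 µg/mL in the growth medium. The series text calls the replicates independent experiments. The labels do not say how many embryos or lines gave the cells, so p-values here measure the spread between these arrays. Untreated knockout arrays (2) and the wild-type arrays untreated, at 12 h and at 24 h (2 each) served as reference; the untreated arrays lay on another slide, so drug and slide cannot be told apart in levels set against them. There was no vehicle group and no untreated group for each time, so time in culture cannot be told apart from time in drug.

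Tunicamycin blocks the first step of N-linked glycosylation, so that misfolded glycoproteins build up in the endoplasmic reticulum and start the unfolded protein response. Of its sensors, PERK phosphorylates eIF2α, which lowers general protein synthesis while favouring translation of the transcription factor ATF4. IRE1 and ATF6 are the sensors of the other branches. A miRNA guides Argonaute proteins to messenger RNAs that pair with its seed, bases 2 to 8 from its 5′ end, and lowers their translation or stability. The arrays measured only miRNAs, so the loss of Atf4 messenger RNA could not be checked on them.

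No mouse miRNA passed the test between 24 h and 12 h in knockout cells: of 120 tested, 0 were higher and 0 lower (0% each way) at an adjusted p of 0.05 by limma with the replicate number as a block. The smallest adjusted p by limma was 0.647, and 3 miRNAs (miR-34c, miR-140 and miR-18a) had an unadjusted p below 0.05. With the 4 knockout tunicamycin arrays fitted alone, 0 had an unadjusted p below 0.05 (smallest limma adjusted p = 0.975). All values below are therefore descriptions with their errors. The test had 3 residual degrees of freedom, and an exact two-sided permutation test of 2 arrays against 2 cannot give a p below 0.333. Levels are log2 signals divided by the 75th percentile of each array, with a floor at -4.93, and a difference is 24 h minus 12 h on that scale. Fold changes of dim miRNAs are understated because of the floor.

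Among the miRNAs higher at 24 h in both replicate pairs were 6 of the miR-17~92 family (miR-18a, miR-19a, miR-19b, miR-20a, miR-20b and miR-92a), all 3 detected miR-34 members, miR-140, miR-29a and miR-29b, miR-27a, let-7e and miR-96. Among those lower in both were miR-193b, miR-146b, miR-99a, miR-100, miR-23b, miR-210, miR-26a and miR-26b. In all, 36 of 120 miRNAs were higher in both pairs (30%) and 13 were lower in both (10.8%). Both 24 h arrays lay above both 12 h arrays for 28 miRNAs (23.3%) and below them for 6 (5%). Of the 13 lower ones, 5 (miR-146b, miR-99a, miR-148a, miR-194 and miR-218) were tested only because they were well above background on both knockout 12 h arrays, so their lower 24 h values follow in part from that filter. When the count was limited to the 89 detected on each of the 4 arrays, 32 were higher and 7 lower in both pairs, and 25 and 3 did not overlap. The split moved with the scaling: with each array scaled to its median, 20 were higher in both pairs and 36 lower, and with no scaling 0 were higher and 39 lower. It moved with the signal used too: 34 were higher and 24 lower with Agilent's total gene signal, and 26 higher and 3 lower with a normexp background correction.

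Sequences of the miRNAs on which this description turns are shown first, with the seed in capitals. Members of a seed family may share targets. Each miRNA had its own array probes, but near-identical members may bind each other's probes, which was not tested. They are RefSeq mature sequences on build GRCm38.p6, where 32 of the 39 names looked up were found. The miR-17~92 cluster lies within chr14:115043684-115044496 on the plus strand, with miR-20b and second copies of miR-19b and miR-92a on chromosome X.
miR-18a: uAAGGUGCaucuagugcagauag
miR-20a: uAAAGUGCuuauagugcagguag
miR-20b: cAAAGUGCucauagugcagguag
miR-19a: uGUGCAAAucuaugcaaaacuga
miR-19b: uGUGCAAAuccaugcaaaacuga
miR-92a: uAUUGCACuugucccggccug
miR-19a and miR-19b differ at 1 of 23 bases, and miR-20a and miR-20b at 2 of 23. The third cluster of the family lies inside the Mcm7 gene on the minus strand of chromosome 5 (miR-106b at chr5:138165787-138165807) and carries the AAAGUGC and AUUGCAC seeds but not those of miR-18a and miR-19.
miR-106b: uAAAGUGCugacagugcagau
miR-93: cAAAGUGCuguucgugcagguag
miR-25: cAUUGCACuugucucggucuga
The miR-34 family shares 1 seed; miR-34a is at chr4:150068473-150068494 on the plus strand and miR-34b at chr9:51103610-51103632 on the minus strand, within the annotated genes Hoatz and Btg4.
miR-34a: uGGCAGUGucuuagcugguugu
miR-34b-5p: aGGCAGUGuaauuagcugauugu
Among those lower in both pairs, miR-99a and miR-100 share a seed, as do miR-26a and miR-26b. The miR-26 genes lie inside genes of the Ctdsp phosphatases, with miR-26b in Ctdsp1 at chr1:74394324-74394344.
miR-100: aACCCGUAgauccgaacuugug
miR-99a: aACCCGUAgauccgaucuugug
miR-26a: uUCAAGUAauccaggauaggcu
miR-26b: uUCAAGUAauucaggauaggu
miR-193b: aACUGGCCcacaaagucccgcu

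The miR-17~92 family, a polycistron that promotes proliferation and survival and is driven by Myc and E2F factors, had 9 tested members of 12 on the array, and 0 passed the test in either direction. Of these 9, 6 were higher in both pairs and 0 lower, beside 30% and 10.8% of all tested miRNAs, and the median difference was 0.74 beside -0.04 for all tested. The level of miR-20a was -2.07 and -1.74 at 12 h (replicates 1 and 2) and -1.69 and -0.23 at 24 h. Both 24 h arrays lay above both 12 h arrays, and replicate 2 at 24 h stood far above the rest, the untreated arrays (-1.57 and -1.53) included. Its difference was 0.95 ± 0.43 (SE; 95% interval -0.16 to 2.05), a 1.93-fold higher signal. Without the 24 h array of replicate 2 this difference was 0.31, and without that of replicate 1 it was 1.58.

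miR-18a, the member with the AAGGUGC seed, read -4.16 and -3.60 at 12 h and -3.52 and -2.39 at 24 h. The groups did not overlap, and the difference was 0.93 ± 0.35 (SE; 95% interval 0.02 to 1.84; limma adjusted p = 0.647), or 0.46 and 1.40 without the 24 h array of replicate 2 or 1. miR-92a, which carries the AUUGCAC seed, was at -1.30 and -1.18 after 12 h and at -0.98 and -0.02 after 24 h, again without overlap, with a difference of 0.74 ± 0.37 (0.25 and 1.23 without those arrays). For miR-20b (-3.87 and -3.46, then -3.59 and -2.01), the 24 h array of replicate 1 fell between the 12 h arrays. The same overlap held for miR-19a (-3.32 and -2.87, then -3.00 and -1.65) and for miR-19b (-1.03 and -0.76, then -0.89 and 0.57). Their differences were 0.86 ± 0.45, 0.77 ± 0.41 and 0.73 ± 0.43.

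The 3 members inside Mcm7 differed less between the times. miR-106b was at -1.25 and -1.20 after 12 h and at -1.13 and -1.58 after 24 h, a difference of -0.13 ± 0.22 with the pairs opposed. miR-93 differed by 0.14 ± 0.23 and miR-25 by 0.08 ± 0.20, each higher in replicate 1 and within 0.03 of equal in replicate 2. Whether the Mcm7 members differ from the rest of the family was not tested. miR-17 itself, miR-18b and miR-363 were too dim to be tested. The star strand miR-17*, tested but not in this list, lay at the floor on both 12 h arrays and the 24 h array of replicate 1. It read -4.15 on the 24 h array of replicate 2 (difference 0.39 ± 0.47).

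The size of the family's difference depended on the pair. In replicate 1 the median over the 9 members was 0.31, beside 0.21 for all tested miRNAs; in replicate 2 it was 1.21, beside -0.24. Without the 24 h array of replicate 2, the family median was 0.18 beside 0.13 for all tested; without that of replicate 1, it was 1.35 beside -0.17. The family median was above that of all tested under every scaling tried (0.65 to 0.85 with scaling). With no scaling it was 0.29 beside -0.40, and 0 members were then higher in both pairs. The split of members moved too: 5 were higher and 1 lower in both pairs with median scaling, and 5 and 2 with quantile normalization. With the total gene signal it was 4 and 1.

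**Figure D1:**
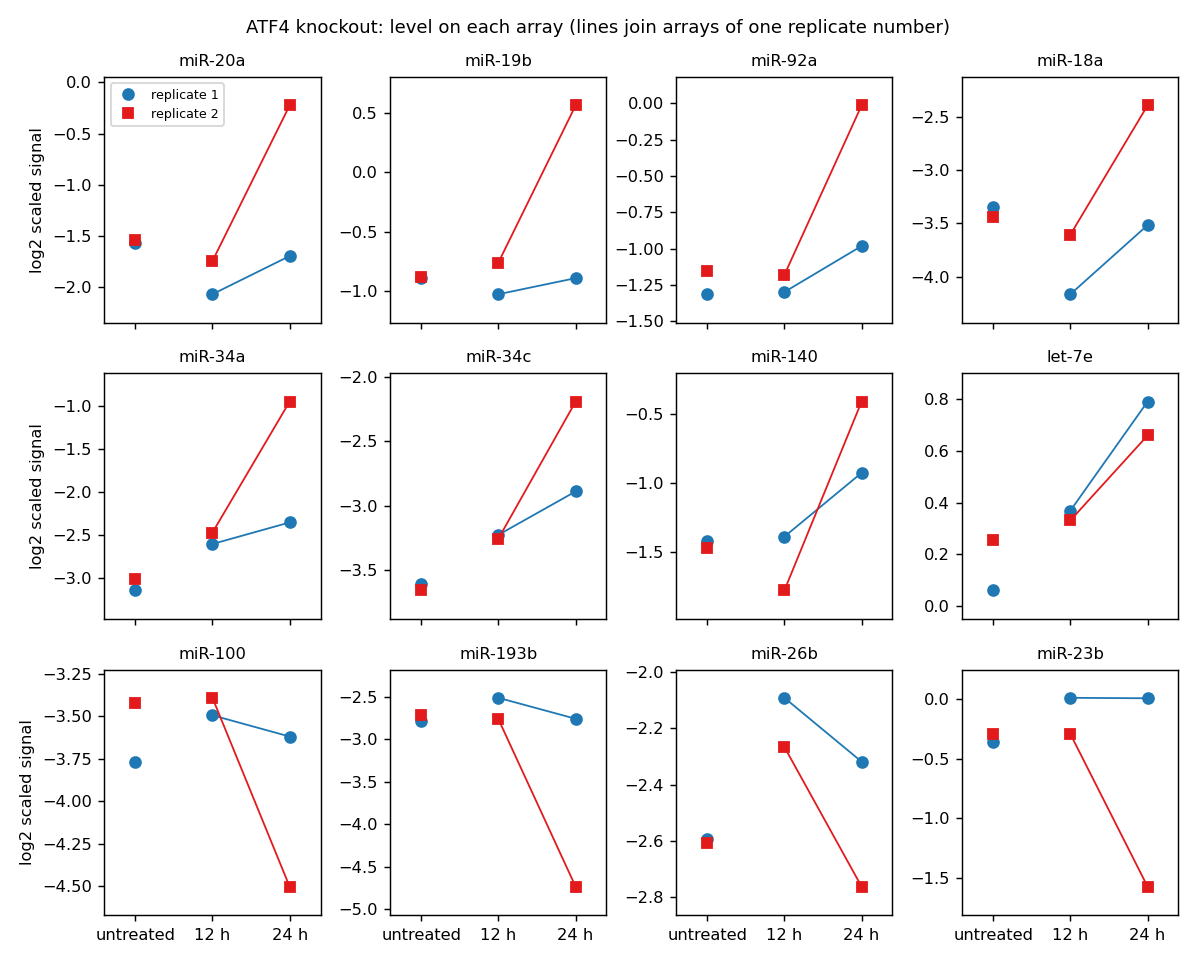
Level of 12 miRNAs on each ATF4 knockout array; the vertical axis is the log2 scaled signal, with its own range in each panel, the horizontal axis the treatment (untreated, tunicamycin 12 h or 24 h), circles replicate 1, squares replicate 2, and lines join the arrays of 1 replicate number. In most panels the 24 h array of replicate 2 is the most distant point: miR-20a read -0.23 there and -1.69 on the other 24 h array, and miR-193b -4.73 and -2.76.

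The p53-linked list (miRNAs induced or processed through the tumour suppressor p53) had 6 tested members of 10. None passed the test, 3 were higher and 1 lower in both pairs (30% and 10.8% over all tested), and the median difference was 0.31 beside -0.04 for all tested (-0.14 with no scaling, beside -0.40). The 3 higher ones were the miR-34 members, direct p53 targets that restrain the cell cycle. miR-34a read -2.61 and -2.47 at 12 h, -2.35 and -0.95 at 24 h, and -3.15 and -3.02 in untreated cells. The 3 conditions did not overlap, with untreated lowest and 24 h highest, and the difference between the times was 0.89 ± 0.46 (SE; 95% interval -0.30 to 2.07). It was 0.19 without the 24 h array of replicate 2 and 1.58 without that of replicate 1.

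miR-34c had the smallest unadjusted p of all (0.043, limma; adjusted p = 0.647). Its levels were -3.22 and -3.25 at 12 h and -2.89 and -2.19 at 24 h, with untreated arrays at -3.60 and -3.66. The conditions were ordered as for miR-34a and did not overlap, and the difference was 0.70 ± 0.26 (95% interval 0.03 to 1.37; 0.35 and 1.05 without the 24 h array of replicate 2 or 1). miR-34b-5p, processed from the same transcript as miR-34c, was at -3.98 and -3.79 and then at -3.70 and -2.71, a difference of 0.68 ± 0.31. It was well above background on 3 of the 4 arrays and was tested only through the 12 h pair. In wild-type cells miR-34b-5p and miR-34c lay at the floor on all 4 tunicamycin arrays, so their later course there is not known. Those arrays were part of the fit, so the errors of both rest in part on values set to the floor. miR-34a and miR-34c kept a positive sign under all 29 alternatives, and miR-34b-5p under the 28 that gave it a value. Many of these alternatives, such as another filter or block, could not change a knockout difference.

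The other p53-linked members did not share this pattern. miR-107, from a Pank intron, differed by -0.05 ± 0.19 and miR-143, a smooth muscle and mesenchymal miRNA, by -0.06 ± 0.23, each with opposed pairs. miR-194 read -3.57 and -4.79 at 12 h and was not well above background on either 24 h array (limma adjusted p = 0.647). With 24 h values raised to no less than the lowest signal well above background on each array, it was 1.30-fold lower at 24 h. That is not a strict bound. On the 24 h array of replicate 1, miR-218 read -4.03 without being well above background, and the lowest signal so marked was -4.20. The fitted difference of miR-194 was -0.75 ± 0.45. It was tested only through the knockout 12 h arrays, where it is high, so its lower 24 h values follow in part from that filter.

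miR-140, a cartilage miRNA made from an intron of Wwp2, was, with miR-34c and miR-18a, 1 of the 3 miRNAs with an unadjusted p below 0.05. It read -1.39 and -1.77 at 12 h and -0.93 and -0.41 at 24 h, against -1.42 and -1.47 untreated. The 24 h arrays were above all others, and the difference was 0.91 ± 0.34 (95% interval 0.02 to 1.80), a 1.88-fold higher signal. Without the 24 h array of replicate 2 it was 0.40, and without that of replicate 1 it was 1.42. Its star strand miR-140*, cut from the same hairpin, did not move alike in the pairs: it was lower by 0.25 in replicate 1 (-3.58 to -3.83) and higher by 1.39 in replicate 2 (-3.77 to -2.38).

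miR-140 belongs to the collagen- and matrix-linked list, of which 10 of 12 members were tested, 0 passed the test, 3 were higher and 0 lower in both pairs (30% and 10.8% over all tested), and the median difference was 0.12 (-0.18 with no scaling). The share of members higher was that of all tested miRNAs. The other 2 were miR-29a and miR-29b, which repress collagen and other matrix genes. miR-29b was at -0.38 and -0.29 and then at -0.13 and 0.75, a difference of 0.65 ± 0.34, and the times did not overlap. For miR-29a only replicate 2 differed by much (-0.03 and -0.01, then -0.02 and 0.94; 0.48 ± 0.33). miR-29c, with the same seed, had opposed pairs (-0.25 and 0.59).

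The let-7 family, which accumulates as cells differentiate and is repressed by Lin28, was tested in full (9 of 9). Of these members 0 passed the test, 4 were higher and 0 lower in both pairs, beside 30% and 10.8% of all tested, and the median difference was 0.04. Their median was 0.32 in replicate 1 (all 9 between 0.14 and 0.48) and -0.06 in replicate 2. let-7e was at 0.37 and 0.33 after 12 h and at 0.79 and 0.66 after 24 h. Untreated arrays were lower still (0.06 and 0.25), and the difference of 0.38 ± 0.17 (95% interval -0.07 to 0.82) was nearly the same in both pairs (0.42 and 0.33), but turned to -0.075 with no scaling, as did the list median (-0.41). let-7b (0.27 ± 0.18) and let-7c (0.20 ± 0.18) were also higher in both pairs, as was miR-98 (0.34 ± 0.21). let-7a (-0.07 ± 0.24), let-7f (0.03 ± 0.21) and let-7i (-0.28 ± 0.29) were higher in replicate 1 and lower in replicate 2. In wild-type cells 9 of 9 members were higher at 24 h in both pairs, beside 35% of all tested there, with a median of 0.34 beside 0.19. The 75th percentile used for scaling fell from 432 to 288 and from 570 to 354 in the wild-type pairs. In log2 terms that fall exceeded the largest let-7 difference in each pair (0.42 and 0.43). With no scaling the let-7 members were thus lower at 24 h in both wild-type pairs, and the wild-type median over all tested was -0.43.

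Of a list of miRNAs that target, or answer to, components of the unfolded protein response, 17 of 28 were tested, 0 passed the test, 6 were higher in both pairs and 1 lower, beside 30% and 10.8% of all tested. The median difference was 0.11. Higher in both were miR-34a, miR-29a, miR-27a, miR-96, miR-23a and miR-24. miR-96, of the miR-183 cluster, read -2.10 and -2.04 and then -1.70 and -1.57, so that its pairs were close (0.40 and 0.47) and its difference was 0.43 ± 0.21. miR-27a, which lies with miR-23a and miR-24 in 1 cluster on chromosome 8, read 0.44 and 0.48 and then 0.93 and 0.99. That is 0.50 ± 0.27, also close between pairs (0.48 and 0.51). miR-23a differed by 0.31 ± 0.23. With no scaling the list median was -0.31, and miR-96 (-0.016) and miR-23a (-0.14) turned negative. The member lower in both was miR-322, of the X-linked cluster with miR-503 (-0.33 ± 0.35).

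**Figure D2:**
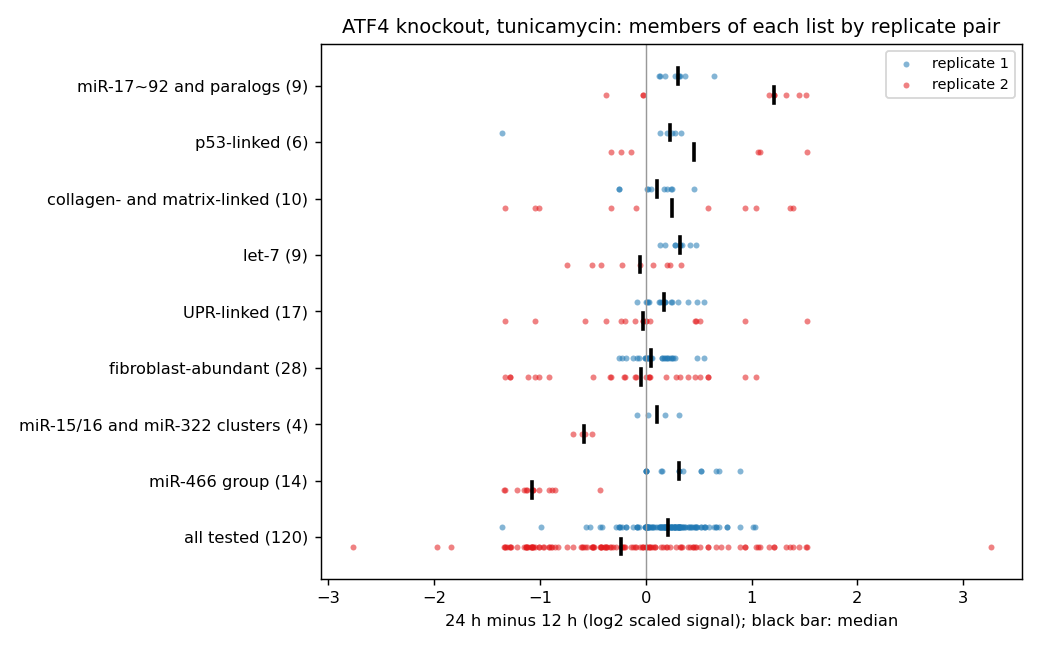
Difference between 24 h and 12 h in ATF4 knockout cells for each tested member of 8 lists and for all 120 tested miRNAs (number tested in brackets); the horizontal axis is 24 h minus 12 h in log2 scaled signal, upper points replicate 1, lower points replicate 2, black bars medians. In replicate 1 all medians lie between 0.05 and 0.32, while in replicate 2 they run from -1.07 (miR-466 group) to 1.21 (miR-17~92 and paralogs).

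miR-193b showed the lowest estimate among miRNAs lower in both pairs. It was at -2.51 and -2.76 after 12 h and at -2.76 and -4.73 after 24 h, against -2.78 and -2.71 in untreated cells. The groups touched, and most of the difference of -1.11 ± 0.58 (95% interval -2.61 to 0.39) lay in replicate 2 (-1.97, against -0.25 in replicate 1). miR-100 and miR-99a, of the miR-99/100 family, were alike in this. miR-100 read -3.49 and -3.39 and then -3.62 and -4.50 (-0.62 ± 0.31), and miR-99a -3.50 and -3.65 and then -3.59 and the floor (-0.68 ± 0.40; 3 of 4 arrays well above background, and tested only through the 12 h pair).

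The direction of miR-100 depended on which deposited value was read. With Agilent's total gene signal, or the authors' value table that equals its log2, miR-100 was the 1 miRNA past the threshold, and it was higher at 24 h by 4.14 (limma adjusted p = 0.0204). In those values it was 30.3 and 28.2 at 12 h and 327 and 460 at 24 h. The deposited total probe signals of its probes, summed, were 30.3 and 28.2 at 12 h but 10.99 and 16.8 at 24 h, and the summed processed signals were 45.7 and 39.8 and then 16.6 and 25.0. Over the tested miRNAs well above background, the total gene signal equalled the summed probe signals within 1% for 96 of 113, 84 of 111, 62 of 91 and 93 of 114 miRNAs on the 4 arrays, and 37 were more than 2 times that sum on at least 1 array. On the 24 h arrays the total gene signal of miR-100 lay just above that of let-7i, the tested miRNA before it in name order. let-7i read 318.2 and 447.7 there, equal to its own summed probe signals. On the 24 h array of replicate 1, miR-193b read 148.1 beside 131.9 for miR-193, while their own probes summed to 19.96 and 26.26. miR-877* read 617.8 there beside 609.3 for miR-872, while their own probes summed to 10.52 and 10.76. Unlike let-7i, miR-193 and miR-872 thus lay above their own sums too. The 4.14 was thus not a rise in the probe signals of miR-100. Why totals and sums differ was not tested.

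miR-26b and miR-26a were lower in both pairs by similar amounts. miR-26b read -2.09 and -2.27 at 12 h and -2.32 and -2.76 at 24 h, a difference of -0.36 ± 0.19, and miR-26a -0.99 and -1.22 and then -1.17 and -1.56 (-0.26 ± 0.18). For miR-26b the 24 h arrays lay below both 12 h arrays and near the untreated ones (-2.59 and -2.61). miR-23b, clustered with miR-27b, differed only in replicate 2 (0.01 and -0.29, then 0.01 and -1.57; -0.64 ± 0.41). miR-30e, of the miR-30 family, differed by -0.20 ± 0.22.

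Some dimmer members of known stress pathways were also lower in both pairs. miR-210, induced by hypoxia through HIF1, read -4.04 and -4.49 and then -4.60 and -4.89 (-0.48 ± 0.21) and was at the floor in untreated cells. miR-146b, an NF-κB target, was at -3.51 and -3.95 and then at -3.92 and the floor (-0.69 ± 0.32), also with untreated arrays at the floor. Both miRNAs were nevertheless well above background on both untreated knockout arrays, so the floor hides their levels there. miR-146b too was tested only through the 12 h pair. miR-155, another inflammatory miRNA, lay near the floor on 3 arrays and at -3.96 on the 24 h array of replicate 2 (0.60 ± 0.33). miR-21, the third tested of the 5 inflammation-linked miRNAs, differed by 0.07 ± 0.20. None of them passed the test. Of miR-193b, miR-146b, miR-100, miR-210, miR-30e, miR-26a, miR-26b and miR-23b, the total gene signal turned miR-100 and also miR-193b (1.84), miR-146b (0.80) and miR-30e (0.48) positive, and normexp miR-210 (0.19), miR-30e (0.19), miR-100 (0.098), miR-146b (0.082) and miR-26b (0.0023).

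miRNAs typical of fibroblasts went both ways, with differences from -0.68 to 0.65. miR-21, which dominates many fibroblast profiles, was at 4.57 and 4.53 and then at 4.80 and 4.43, miR-22 differed by 0.13 ± 0.20 and miR-125b-5p by -0.08 ± 0.18 (95% interval -0.54 to 0.38). Of 33 fibroblast-abundant miRNAs, 28 were tested, 0 passed, 10 were higher and 5 lower in both pairs (30% and 10.8% over all tested), and the median difference was 0.05 (-0.38 with no scaling, beside -0.40 for all tested). Their summed scaled signal was 45.5 and 43.7 at 12 h and 51.8 and 42.5 at 24 h. Of the marker lists for other cells, epithelial (7 names), muscle (7), blood (7), endothelial (2) and pluripotent (12) miRNAs had 0 members well above background on both arrays at either time. Neural miRNAs had 2 of 8 tested (miR-129-3p at -0.18 ± 0.25 and miR-129-5p at 0.19 ± 0.20), with the defining miR-9 and miR-124 not tested.

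The Dnm3os miRNAs miR-214, miR-199a-3p and miR-199a-5p, made from a mesenchymal transcript opposite Dnm3, each had opposed pairs. Their differences were from 0.02 to 0.17 in replicate 1 and from -1.33 to -1.01 in replicate 2. A second copy of miR-199a-3p lies within Dnm2 on chromosome 9. miR-214 was at 0.34 and 0.23 and then at 0.51 and -1.10 (-0.58 ± 0.48), and miR-199a-3p at 1.51 and 1.41 and then at 1.56 and 0.40 (-0.48 ± 0.38). The related star strand miR-199b*, from another gene, also had opposed pairs (0.11 and -0.49) and differed by -0.19 ± 0.29. The miR-15/16 and miR-322 clusters, which restrain the G1 phase, had 4 tested members of 8. None passed, 0 were higher and 1 lower in both pairs, against 30% and 10.8% of all tested; their median was 0.11 in replicate 1 and -0.59 in replicate 2 (miR-15a -0.21 ± 0.26, miR-15b -0.19 ± 0.29 and miR-16 -0.24 ± 0.21). Star strands had 8 tested of 115, with 2 higher and 0 lower in both pairs (again beside 30% and 10.8%) and a median of 0.07.

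**Figure D3:**
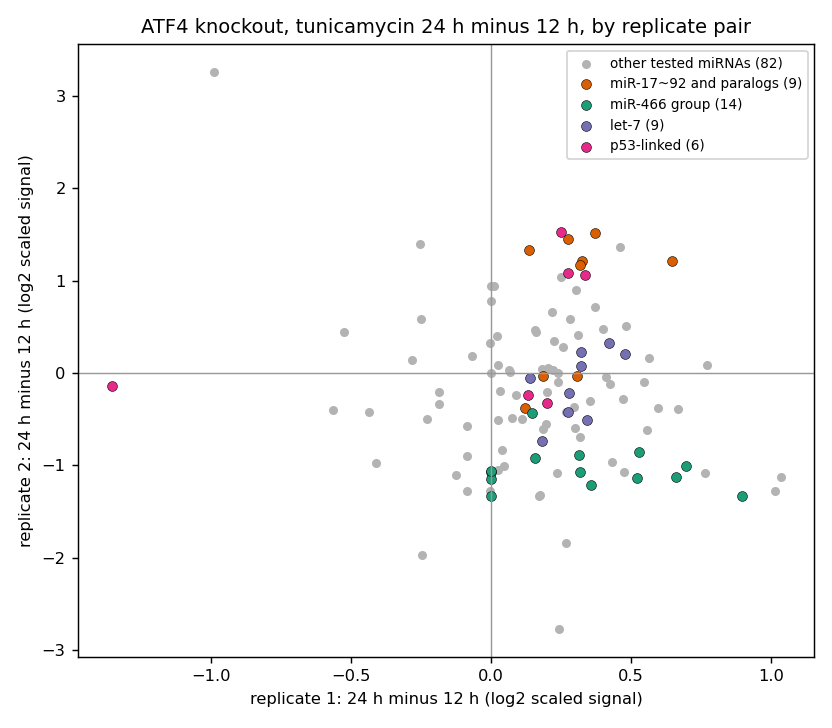
Difference between 24 h and 12 h in replicate 1 (horizontal axis) against that in replicate 2 (vertical axis), in log2 scaled signal, for the 120 tested miRNAs in ATF4 knockout cells; colours mark 4 lists. Of the 9 miR-17~92 members, 6 lie in the upper right, and all 14 of the miR-466 group lie below 0 in replicate 2 and at or above 0 in replicate 1.

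The replicate pairs differed in direction for most miRNAs. Of 120 miRNAs, 49 differed in the same direction in both pairs, 62 in opposite directions, and 9 had a pair with no difference. Across miRNAs, which are not independent and share arrays, the correlation between the pairs was -0.14, and -0.20 over the 89 well above background on all 4 arrays. In replicate 1, 92 were higher and 20 lower, with an SD over miRNAs of 0.33; in replicate 2, 45 were higher and 73 lower, with an SD of 0.88. The 24 h array of replicate 1 was the dimmest of the 12 (75th percentile 204 units, against 515 and 418 at 12 h and 566 on the other 24 h array). It had 92 mouse miRNAs well above background, against 134, 133 and 164 on the others. Of the 105 tested miRNAs above background on both 12 h arrays, 16 were not so on both 24 h arrays, and of those miR-194 and miR-218 were above on neither. The part of brightness in the differences was not tested.

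The miRNAs named miR-669, miR-467, miR-466 or miR-297, most of them from an intron of Sfmbt2 in rodents, were lower in replicate 2 but not in replicate 1. This miR-466 group had 14 tested members of 39, and 0 passed the test. In replicate 1, 10 were higher, 4 equal and 0 lower at 24 h (median 0.32), and in replicate 2 all 14 were lower (median -1.07). The group's median level was -4.70 and -0.77 at 12 h and -3.91 and -1.84 at 24 h, with untreated arrays at -3.65 and -3.99. Replicate 2 was thus far above replicate 1 at both times, and this gap was larger than the median difference between the times in either pair. With no scaling, and with the total gene signal, 7 of the 14 were lower in both pairs. miR-466g lay at the floor on both arrays of replicate 1 and at 1.38 and 0.24 on those of replicate 2. miR-466f-3p had the same course (1.34 and 0.27 in replicate 2). For miR-669c the levels were -2.98 and -0.18 and then -2.32 and -1.30, for miR-669f -2.10 and 0.23 and then -1.78 and -0.66, and for miR-467a* -4.47 and -0.30 and then -3.78 and -1.31. miR-877*, which is not of the group, did likewise (-3.72 and 1.07, then -2.68 and -0.05).

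A few single miRNAs stood out in 1 pair. miR-690, a name linked to tRNA or rRNA fragments, was at -3.80 and -1.23 and then at -3.56 and -4.00, a difference of -1.26 ± 0.77, while miR-720, the other such name tested, differed by 0.15 ± 0.23. Chosen after their values were seen, miR-1224 read 0.69 and -0.53 at 12 h and -0.30 and 2.73 at 24 h, and miR-196a, from the Hox clusters, -2.23 and -1.94 and then -1.96 and -3.78.

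In wild-type cells, 0 of 120 miRNAs passed the same test between 24 h and 12 h (0 by unadjusted p as well), 42 were higher in both pairs (35%) and 5 lower (4.17%). Both 24 h arrays lay above both 12 h arrays for 30 (25%) and below them for 4 (3.33%). The knockout difference minus the wild-type difference also passed for 0 of 120, with a smallest limma adjusted p of 0.912 and 0 unadjusted p below 0.05. For the miR-17~92 family the wild-type median was 0.22, with 3 of 9 higher in both pairs (35% of all tested). miR-20a in wild-type cells was at -0.38 and -0.63 at 12 h and at -0.54 and 0.01 at 24 h, above the knockout levels at 12 h, and its genotype difference was 0.71 ± 0.61. miR-34a differed by 0.18 ± 0.46 in wild type and 0.89 ± 0.46 in knockout, a genotype difference of 0.70 ± 0.65. miR-140 had a genotype difference of 0.77 ± 0.49 and miR-18a of 0.73 ± 0.50.

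The 5 smallest p of the genotype difference belonged to miR-194 (-1.44 ± 0.63), miR-210 (-0.76 ± 0.30), miR-423-5p (-0.83 ± 0.37), miR-26b (-0.56 ± 0.27) and miR-100 (-0.84 ± 0.43). Each was lower at 24 h in knockout cells by the fit and higher in wild type. miR-194 was above the floor on 1 of the 4 wild-type tunicamycin arrays (-3.54, at 24 h). miR-423-5p was not alike in the knockout pairs (0.04 and -0.83). let-7e differed between genotypes by 0.02 ± 0.25 (wild type 0.35 ± 0.17).

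**Figure D4:**
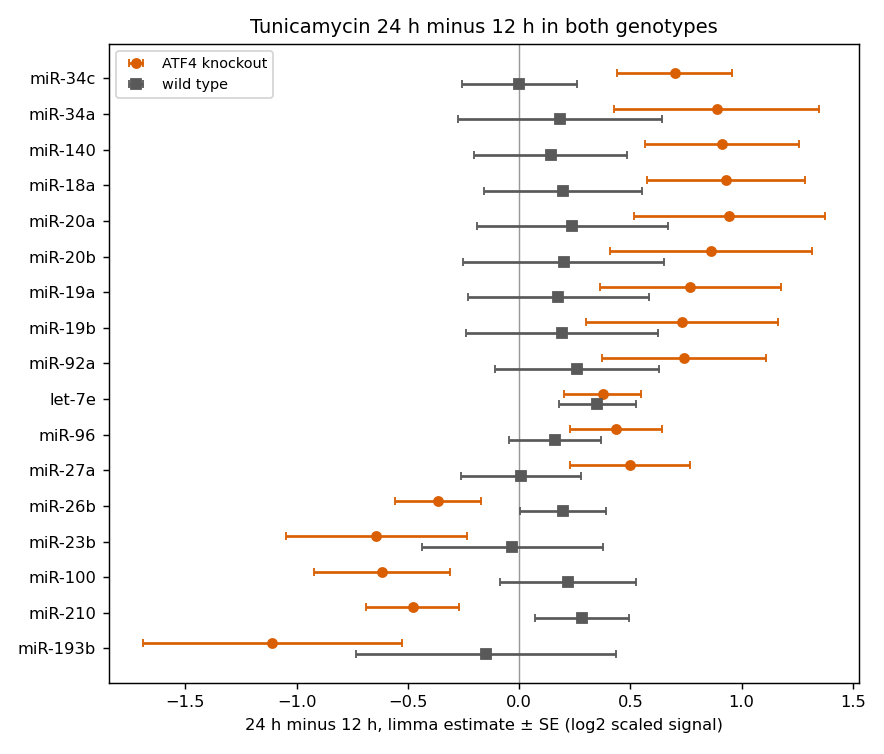
Difference between 24 h and 12 h of tunicamycin for 17 miRNAs in ATF4 knockout (circles) and wild-type cells (squares). The horizontal axis is the limma estimate in log2 scaled signal, with 2 arrays per group, and bars are ± 1 SE. The SE came from the joint fit of all tunicamycin arrays of both genotypes. The knockout and wild-type bars of a miRNA are therefore equal and do not show the spread within either genotype. In wild-type cells miR-34c lay at the floor on all tunicamycin arrays. For miR-20a the values are 0.95 ± 0.43 and 0.24 ± 0.43, and 0 of the genotype differences passed the test.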

How the data were processed

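Total RNA was labelled with Cy3 and hybridised to 12 Agilent 1-colour miRNA arrays, read by the authors with Agilent Feature Extraction 10.7.1.1, per the submitters' processing notes. Per the file headers, the processed, total probe and total gene signals are intensity values, background-subtracted and not scaled between arrays. The deposited value table equals the log2 of the total gene signal; its knockout tunicamycin columns had medians of 5.44, 6.46, 5.95 and 6.40 (12 h, then 24 h). Other deposited columns used are 0 or 1 flags, per the file headers. Probe annotation beyond the miRNA names in the files is not given in the sources used here.

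Processed signals were averaged over the spots of a probe, without controls and outliers, and summed over the probes of a miRNA; 0 spots were saturated. Each array was scaled to its own 75th percentile among 82 miRNAs that were well above background everywhere (12 of 12 arrays), after which values under a floor of 0.0328 were set to it and log2 was taken. A miRNA counted as above background where 50 percent or more of the spots of any of its probes were so marked, and was tested when this held on both arrays of at least 1 tunicamycin group; 7 passed only through the knockout 12 h arrays (5 of them lower in both pairs) and 0 only through the 24 h arrays. For the fold of a miRNA not detected in 1 group, that group was raised to no less than the lowest signal well above background of each array. This is not a strict bound, since a miRNA can be brighter than that signal and not be so marked.

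The 8 tunicamycin arrays were fitted with limma 3.58.1 in R 4.3.3 (4 group means and the replicate number; 3 residual degrees of freedom, prior 1.98), with Benjamini-Hochberg adjustment over 120 miRNAs and a threshold of 0.05. Wild-type arrays were included because 4 arrays alone leave 1 degree of freedom. All 8 lay on 1 slide, with replicates 1 and 2 scanned on different days. The replicate numbers pair the arrays: the deviations of replicates from their group means correlated between the 4 groups at 0.72 to 0.96 (knockout 12 h with 24 h 0.79, over 120 miRNAs). The pooled SD between replicates was 1.21 at 12 h and 0.99 at 24 h in knockout cells, against 0.13 untreated. With so few arrays, their number limits the precision.

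This comparison, its lists and the choice of miRNAs to name were made with earlier results of these data known. The rule named those past the threshold; in each direction up to 8 of smallest p among those well above background on all 4 arrays with both pairs alike; the 4 brightest tested members of each list; the 5 of smallest p in the genotype difference; and the 5 brightest. It gave 51 miRNAs, with 7 lower ones by the second part. The remaining values were named as members of a list or family. Array names follow an old nomenclature and were matched by hand to current names for sequences. The fit was tested on simulated data.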

Additional observations from a re-analysis of the deposited data

Results flagged for a closer look

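miR-100, miR-26b and miR-210 were lower at 24 h in both knockout pairs and higher in both wild-type pairs. Of all 120 tested miRNAs, 10.8% were lower in both knockout pairs and 35% higher in both wild-type pairs. With normexp the knockout differences of these miRNAs turned positive (0.098, 0.0023 and 0.19). With Agilent's total gene signal that of miR-100 was 4.14. By limma the knockout minus wild-type difference was -0.84 ± 0.43 for miR-100, -0.56 ± 0.27 for miR-26b and -0.76 ± 0.30 for miR-210, each with an adjusted p of 0.912, so the test of the difference passed for 0 of them.

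Names of mouse virus miRNAs were in no comparison. mcmv-miR-M23-1-3p and mcmv-miR-M23-1-5p, of murine cytomegalovirus, were well above background on 1 of the 4 knockout tunicamycin arrays, the 24 h array of replicate 2 (levels -3.89 and -4.65), and on 0 of the 4 untreated arrays. mghv-miR-M1-2, of murine gammaherpesvirus, was well above background on all 4 knockout tunicamycin arrays, but also on 3 of the 4 untreated arrays and on 11 of the 12 in all.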

How the results depend on the processing

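Of the 51 named miRNAs, 15 kept their sign under every alternative that gave them a value, 12 of them under all 29 (among them miR-34a, miR-34c, miR-140, miR-18a, miR-20a, miR-19b, miR-92a, miR-27a and miR-29a) and 3 under 28 (miR-34b-5p, miR-155 and miR-194). Alternatives that changed only the filter, the variance model, the replicate block or the arrays fitted beside the knockout tunicamycin arrays left each knockout difference as it was. A kept sign under those was fixed in advance, and only the other alternatives could have changed it. The count past the threshold between 24 h and 12 h in knockout cells moved from 0 to 1 (miR-100) with Agilent's total per gene, whether from the scanner files or the authors' value table, where the summed total probe signal, an alternative chosen after seeing the data, gave 0; all other alternatives gave 0, and the wild-type and genotype counts were 0 throughout. Without the replicate block the count was 0 (smallest limma adjusted p = 0.796), and with all 12 arrays 0 without it (0.465) and 0 with the scan date as a block (0.427), so the block changed no call. Without the knockout 24 h array of replicate 1, 0 passed but 29 had an unadjusted p below 0.05 (smallest limma adjusted p = 0.0941). The median over all tested miRNAs moved from -0.04 to -0.40 with no scaling and to 0.17 with normexp. The cause of the sign changes below was not tested. Agilent's total per gene of miR-100, miR-193b and miR-877* lay far above their own summed probe signals on the knockout 24 h array of replicate 1. With that total, from both sources, the differences of other sign were miR-100 4.14, miR-193b 1.84, miR-30e 0.48, let-7f -0.050, miR-21 -0.0055, miR-146b 0.80, miR-877* 2.81 and miR-423-5p 0.90, and the list medians that moved were p53-linked 0.80 and inflammation-linked 0.80. With no scaling, the differences of other sign were let-7e -0.075, miR-96 -0.016, miR-23a -0.14, let-7f -0.42, let-7b -0.18, miR-21 -0.38, miR-22 -0.33, miR-129-5p -0.091 and miR-720 -0.30, and the list medians that moved were UPR-linked -0.31, let-7 -0.41, p53-linked -0.14, fibroblast-abundant -0.38, collagen- and matrix-linked -0.18 and inflammation-linked -0.38. With normexp, the differences of other sign were miR-100 0.098, miR-26b 0.0023, miR-30e 0.19, let-7f -0.038, miR-106b 0.0037, miR-107 0.15, miR-21 -0.041, miR-146b 0.082, miR-129-3p 0.17, miR-466g 0.033, miR-466f-3p 0.050, miR-877* 0.042, miR-467a* 0.054, miR-210 0.19 and miR-423-5p 0.20, and the list medians that moved were fibroblast-abundant 0.13 and collagen- and matrix-linked 0.28. With the mean of log2 probe signals, the differences of other sign were miR-125b-5p 0.041, let-7a 0.060, miR-107 0.10 and miR-877* 0.096, and the list medians that moved were p53-linked 0.48, fibroblast-abundant 0.17 and collagen- and matrix-linked 0.26. With quantile normalization, the differences of other sign were miR-15a 0.023, miR-720 -0.14 and miR-467a* 0.073, and the list median that moved was fibroblast-abundant -0.047. With scaling by the median, the difference of other sign was let-7f -0.020. With the 75th percentile over all miRNAs, the differences of other sign were let-7f -0.066 and miR-21 -0.022, and the list median that moved was fibroblast-abundant -0.041. Leaving out each of the 8 arrays in turn gave these ranges where a sign changed or a list median moved, each through a knockout array: miR-23b -1.31 to 0.026, let-7a -0.37 to 0.22, let-7f -0.17 to 0.22, let-7i -0.71 to 0.15, miR-106b -0.31 to 0.057, miR-107 -0.18 to 0.079, miR-21 -0.092 to 0.24, miR-199a-3p -1.01 to 0.050, miR-15b -0.60 to 0.22, miR-15a -0.52 to 0.11, miR-214 -1.28 to 0.13, miR-129-3p -0.52 to 0.16, miR-129-5p -0.0040 to 0.37, miR-720 -0.12 to 0.43, miR-690 -2.58 to 0.053, miR-669f -0.71 to 0.14, miR-669c -1.07 to 0.61, miR-466g -1.34 to 0.20, miR-466f-3p -1.29 to 0.23, miR-199b* -0.50 to 0.12, miR-877* -0.78 to 0.69, miR-467a* -0.80 to 0.49 and miR-140* -0.27 to 1.41, and for lists UPR-linked -0.064 to 0.27, p53-linked 0.14 to 0.44, fibroblast-abundant -0.052 to 0.12, let-7 -0.031 to 0.26, miR-15/16 and miR-322 clusters -0.51 to 0.030, inflammation-linked -0.092 to 0.24, miR-466 group -0.84 to 0.17, collagen- and matrix-linked 0.088 to 0.32 and star strands -0.18 to 0.49. The planned normexp on mean spot signals was not run, since the files used hold only median spot signals. Signal over background limits the dim miRNAs: 491 were not tested.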
